A study of Mus musculus with 4 samples.

Results

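The genes described here encode proteins that read N6-methyladenosine (m6A) on RNA. They were chosen by name from the deposited table of reads per gene, as the YTH-domain genes Ythdf1, Ythdf2, Ythdf3, Ythdc1 and Ythdc2, the insulin-like growth factor 2 mRNA-binding protein genes Igf2bp1, Igf2bp2 and Igf2bp3, and Fmr1. All 9 had a row among the 49997 genes of the table, and all 9 passed the filter on low counts that left 18341 genes for testing. The RNA was that of E14 cells, a line of mouse embryonic stem cells (ESCs), grown on gelatin with leukemia inhibitory factor. Per the study's methods the cells also carried a tdTomato reporter driven by the MERVL promoter, and the hairpins were delivered by lentivirus to lines kept as stable under puromycin. Both groups share that background. The 2 shScramble libraries carried a scrambled control hairpin and the 2 shYthdf2 libraries a hairpin against Ythdf2. A pair of hairpins against Ythdf2 is listed in the methods, and which of them was used here is not given in the labels. The labels also do not say whether replicates were separate cultures, though the methods call them independent, so p-values measure the spread between these libraries only.

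m6A is placed on adenosines of messenger RNA in the nucleus by a methyltransferase complex around METTL3 and METTL14, and can be removed by FTO and ALKBH5. YTH-domain proteins bind the methylated base directly. YTHDF1, YTHDF2 and YTHDF3 are close relatives in the cytoplasm that act on translation and decay, YTHDC1 works in the nucleus and YTHDC2 is a helicase best known from meiosis. The IGF2BP proteins and FMRP, the product of Fmr1, are RNA-binding proteins of other families that were proposed to prefer methylated transcripts. In ESCs the mark is known for limiting how long transcripts of the pluripotency network persist, and the question asked of these libraries was whether other reader transcripts differed when Ythdf2 was lowered.

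Totals ran from 31113006 to 36422510 reads per library, and between 25155 and 25745 genes had a read. The 9 reader genes took between 0.154% and 0.167% of the reads, which was between 50997 and 59280 reads per library. All 8 ESC markers listed were detected, and their summed level was 6098 and 5986 CPM (reads scaled to a common library total) in shScramble and 5684 and 5243 CPM in shYthdf2. Fibroblast markers summed to between 9.54 and 18.0 CPM, primitive endoderm markers to between 8.77 and 14.5 CPM and trophectoderm markers to between 0.894 and 1.32 CPM. The 4 neural markers summed to 134 and 90.0 CPM in shScramble and to 218 and 159 CPM in shYthdf2, without overlap. Most of that sum was Tubb3, at 115 and 69.2 CPM in shScramble and 179 and 126 CPM in shYthdf2. Tubb3 did not pass (edgeR adjusted p = 0.10), and 1 of the 4 rose, Neurod1 (log2 fold change 1.94, edgeR adjusted p = 0.0030). Of the ESC markers 1 fell, Tdgf1 (log2 fold change -0.47, edgeR adjusted p = 0.041). No marker of the 5 lists was at 0 in all 4 libraries, and the part of these shifts in the values below was not tested.

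The relatives within each family are alike enough that it matters whether reads could be told apart. Along the coding sequence, Ythdf2 matched Ythdf1 at 67.3% and Ythdf3 at 70.6% of aligned bases, and Ythdf1 matched Ythdf3 at 69.4%. The most alike stretch of 30 bases is given to make this visible. It was sought only among runs of whole codons that aligned without gaps and lay within single exons of all 3 genes. The sequences are from GENCODE M21 transcripts on GRCm38 (the same build as mm10), written 5′ to 3′ along each gene's own strand. Capitals mark the 5 positions at which the 3 genes differ. They lie in coding exons at chr4:132205104-132205133 on the minus strand for Ythdf2, at chr2:180911611-180911640 on the minus strand for Ythdf1 and at chr3:16204402-16204431 on the plus strand for Ythdf3.
Ythdf2: tgggcTgATattgcTagCaagcctgcaaaa
Ythdf1: tgggcAgCCattgcTagCaagcctgcaaaa
Ythdf3: tgggcTgCTattgcCagAaagcctgcaaaa
No window of 150 bases, the read length, was shared between the longest coding transcript of a YTHDF gene and a transcript of another gene. The IGF2BP genes matched each other at between 68.1% and 68.8% of aligned coding bases. Their most alike stretch, sought in the same way, also differed at 5 of 30 positions, again in capitals. It lies in coding exons at chr11:96005493-96005522, chr16:22162820-22162849 and chr6:49214331-49214360, all on the minus strand.
Igf2bp1: ggctacgcCttcgtggaTtGcccCgacGag
Igf2bp2: ggctacgcCttcgtggaCtAcccCgacCag
Igf2bp3: ggctacgcGttcgtggaCtGcccGgacGag
Shared windows of 150 bases were found for 2 of the 9 genes only, and both lie where gene models overlap in the genome. They were 15.6% of the Ythdc1 windows, shared with Gm43055, and 32.9% of the Igf2bp3 windows, shared with Malsu1 on the opposite strand. In the annotation used for the deposited counts, the exons of neither overlap another gene, and since no strand option was set, reads of Malsu1 that run into the Igf2bp3 exon could not be kept apart. Igf2bp1 holds 92 bases of the microRNA gene Mir3063, which is 1.10% of its exon length.

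Levels are compared between genes only per length, as CPM after TMM scaling divided by the kilobases of a gene's merged exons, called CPM per kilobase below. On this scale the shScramble cells contained most Igf2bp1 RNA, with a mean of 79.8 CPM per kilobase, and 95.6% of all genes tested lay below it. Ythdf1 followed at 43.8, then Igf2bp2 at 35.6 and Ythdc1 at 29.8 CPM per kilobase, and none of these neighbours overlapped in their 2 libraries. The margins between the last 3 were narrow. In shScramble replicate 2 Ythdf1 had 39.1 and Igf2bp2 38.6 CPM per kilobase. In shScramble replicate 1 Igf2bp2 had 32.58 and Ythdc1 32.56 CPM per kilobase, so these ranks are hardly separated. Fmr1 (25.9), Igf2bp3 (24.5), Ythdf3 (23.5) and Ythdf2 (22.2 CPM per kilobase) came next, and each overlapped with its neighbour in this order, though Fmr1 lay above Ythdf3 and Ythdf2 in both libraries. Ythdc2 was lowest at 4.57 CPM per kilobase, still above 55.0% of genes tested. In shYthdf2 cells Igf2bp1 and Ythdf1 were again first and Ythdc2 last, and Ythdc1 stood before Igf2bp2. Ythdf2 was next to last in both groups. The gene above it was Ythdf3 in shScramble, with 1.06 times its level per length, and Fmr1 in shYthdf2, with 2.53 times.

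**Figure D1:**
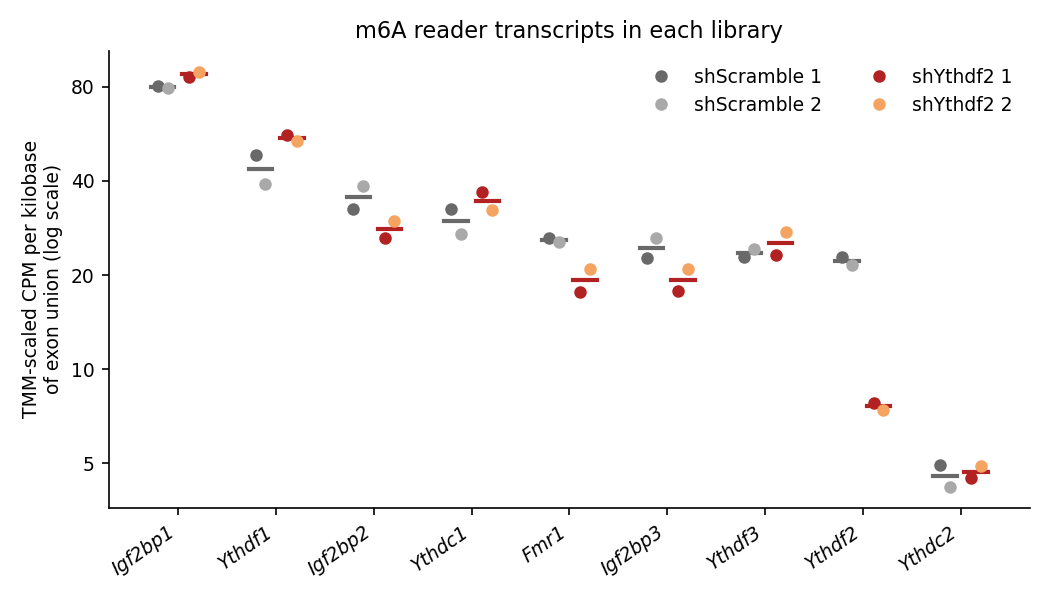
Level of each m6A reader transcript in TMM-scaled CPM per kilobase of exons (log scale), ordered by the shScramble mean. Each point is a library and each short line a group mean. Ythdf2 falls from 22.2 to 7.60, whereas the points of Ythdf3, Ythdc1 and Ythdc2 overlap between the groups.

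This order depended on the length used. With the TPM scale, in which the rates per length of all genes are set to a common sum, the order was the same in both groups. With the longest GENCODE transcript in place of all exons, Ythdc1, whose longest transcript has 3269 bases against 4992 bases of exons, stood at 45.5 CPM per kilobase in shScramble and came before Ythdf1. Igf2bp3, with 4345 bases against 6318, stood at 35.6 CPM per kilobase in shScramble and 28.1 in shYthdf2. With that length it came before Fmr1 in shScramble and before Igf2bp2 in shYthdf2. Fold changes of a gene between groups do not depend on its length, but shares of and ratios between genes do.

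With edgeR and an adjusted p under 0.05 as the threshold, 1 of the 9 reader transcripts fell in shYthdf2 and 0 rose. The 1 that fell was Ythdf2, the target of the hairpin, whose fall the design set out to produce. It is also counted among the lower readers in each comparison below. Over all genes tested 3.91% passed, made up of 2.43% higher and 1.49% lower. Without adjustment, 1 reader was higher and 4 were lower at a p under 0.05, and 20.8% of all genes tested passed. By the criteria the study used (DESeq2, unadjusted p of at most 0.05 and a change of at least 2-fold), 1 reader was lower and 0 were higher, against 2.88% of genes. The libraries of the 2 groups did not overlap for 6 of the 9, with 2 higher and 4 lower in shYthdf2, against 51.8% of all genes tested. The median log2 fold change was 0.042 over the 9 genes, 0.074 without Ythdf2 and 0.0019 over all genes tested. A permutation of 2 against 2 libraries cannot give an exact two-sided p below 0.333, so single levels carry the model's p only.

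**Figure D2:**
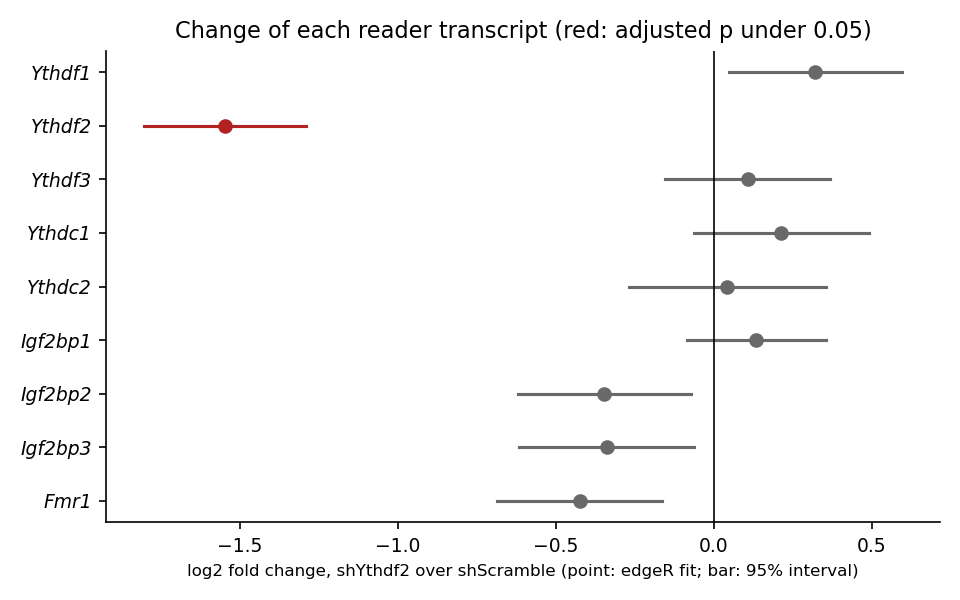
Log2 fold change of each reader transcript in shYthdf2 over shScramble from the edgeR fit, with its 95% interval. Red marks an adjusted p under 0.05, which only Ythdf2 reaches, at -1.55.

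Ythdf2, the targeted gene, recruits deadenylases to methylated transcripts. It lies at chr4:132184916-132212256 on the minus strand. The shScramble libraries held 3365 and 2760 reads of it, and the shYthdf2 libraries 1086 and 1082. Its level per length was 22.9 and 21.5 CPM per kilobase in shScramble and 7.79 and 7.41 CPM per kilobase in shYthdf2. The groups stood far apart, and the spread within each was small beside the gap. In the edgeR fit this was a log2 fold change of -1.55 with a 95% interval of -1.80 to -1.29 (SE 0.11, adjusted p = 0.00069), so that 34.2% of the shScramble level remained. In these bulk samples, fewer cells that hold the transcript and less of it per cell cannot be told apart. The share of tested genes lying below Ythdf2 per length went from 82.6% in shScramble to 63.8% in shYthdf2. It had the second lowest p of all genes tested, though 269 genes had a log2 fold change as low or lower.

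By the distance between log2 CPM profiles centred on their means, over the 4 libraries and 14440 genes with a mean of at least 1 CPM, the 3 genes closest to Ythdf2 in pattern were Acsl6, Usp26 and Gm553. Acsl6, an acyl-CoA synthetase, was closest, with a distance of 0.0516 log2 units. It stood at 25.3 and 24.4 CPM in shScramble and 9.01 and 8.44 CPM in shYthdf2 (log2 fold change -1.51, edgeR adjusted p = 0.0032). Usp26, a deubiquitinase gene of the X chromosome, had 96.1 and 92.0 CPM against 33.1 and 29.5 CPM (log2 fold change -1.59, edgeR adjusted p = 0.00069). Gm553 was low, with 1.80 and 1.78 CPM against 0.556 and 0.559 CPM, and did not pass the test (log2 fold change -1.68, edgeR adjusted p = 0.062). With 2 libraries per group such a likeness says little more than that the replicates of each gene were close.

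Ythdf1, which is known for promoting translation of methylated transcripts, lies at chr2:180904377-180920936 on the minus strand. It had 5537 and 3908 reads in shScramble against 6061 and 6077 reads in shYthdf2. Its level was 48.5 and 39.1 CPM per kilobase in shScramble and 55.9 and 53.6 CPM per kilobase in shYthdf2. Both shYthdf2 libraries were above both shScramble libraries, but the shScramble libraries were also far from each other, by -0.31 on the log2 scale (replicate 2 minus replicate 1). The log2 fold change of 0.32 (SE 0.12, 95% interval 0.047 to 0.59) did not pass (edgeR adjusted p = 0.17). Leaving out shScramble replicate 2 gave 0.17 (edgeR adjusted p = 0.76), and leaving out shScramble replicate 1 gave 0.49 (edgeR adjusted p = 0.075). Without shYthdf2 replicate 2 it passed, at 0.35 (edgeR adjusted p = 0.039). In that fit the lone shYthdf2 library is assumed to vary like the others, and 11.8% of the genes tested passed.

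Ythdf3, a partner of both relatives in the cytoplasm, lies at chr3:16183148-16217037 on the plus strand. Its reads were 4403 and 4071 in shScramble and 4233 and 5259 in shYthdf2, which is 22.9 and 24.2 against 23.2 and 27.5 CPM per kilobase. The groups overlapped, and only shYthdf2 replicate 2 was above both controls. Its log2 fold change was 0.11 (SE 0.12, 95% interval -0.15 to 0.37, edgeR adjusted p = 0.66), and without that library it was -0.022. The interval allows a change between 10.1% lower and 29.0% higher.

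The 3 YTHDF transcripts can be added per length to ask how far their sum followed Ythdf2. The sum was 94.3 and 84.8 CPM per kilobase in shScramble, against 86.9 and 88.4 CPM per kilobase in shYthdf2. Both shYthdf2 values lay between the controls. The group means were 89.5 ± 6.71 and 87.6 ± 1.12 CPM per kilobase (SD, n = 2), a difference of -2.08%, smaller than the spread between the shScramble libraries. In mean level Ythdf2 differed by -14.6, Ythdf1 by 10.9 and Ythdf3 by 1.80 CPM per kilobase. The higher means of the other 2 genes came to 87.3% of the loss of Ythdf2. In percent of that same loss, Ythdf1 gave 74.9% and Ythdf3 12.4%. The share of 87.3% turned on the control library. Against shScramble replicate 1 it was 51.0% and 62.5% in the pairs with the 2 shYthdf2 libraries, and against shScramble replicate 2 it was 115% and 126%. Neither Ythdf1 nor Ythdf3 passed the test, so the share is built on differences that did not pass. These values describe RNA only, and protein was not measured in these libraries.

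**Figure D3:**
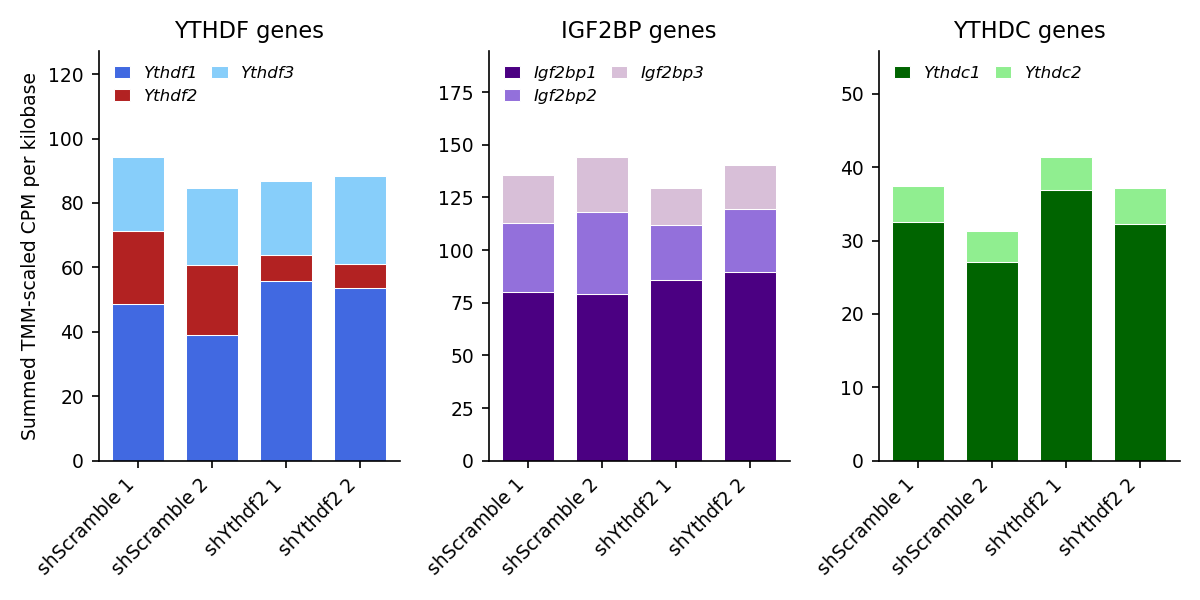
Summed level of the YTHDF, IGF2BP and YTHDC transcripts in each library, in TMM-scaled CPM per kilobase, stacked by gene from 0. The YTHDF sums of both shYthdf2 libraries (86.9 and 88.4) lie between those of the shScramble libraries (94.3 and 84.8), with a smaller Ythdf2 segment.

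Shares and ratios within a library do not depend on how the libraries were scaled. A fall of Ythdf2 by itself raises the shares of Ythdf1 and Ythdf3 and their ratios to Ythdf2, so these are not a measure of a gain. Ythdf1 made up 48.8% ± 3.74 of the summed level in shScramble and 62.5% ± 2.70 in shYthdf2 (SD, n = 2). Ythdf2 went from 24.8% ± 0.73 to 8.68% ± 0.41, and Ythdf3 from 26.4% ± 3.01 to 28.9% ± 3.12 (SD, n = 2). Per length there were 2.12 and 1.82 Ythdf1 transcripts for each of Ythdf2 in shScramble, against 7.18 and 7.22 in shYthdf2. The ratio of Ythdf3 to Ythdf2 was 1.00 and 1.12 in shScramble and 2.97 and 3.71 in shYthdf2. Ythdf1 to Ythdf3, which leaves out the targeted gene, was 2.12 and 1.62 in shScramble and 2.41 and 1.95 in shYthdf2, and here the groups overlapped.

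Ythdc1 encodes the nuclear reader, which takes part in splicing, export and the silencing of retroviral elements. It lies at chr5:86803980-86836659 on the plus strand. Its reads were 5853 and 4261 in shScramble and 6296 and 5768 in shYthdf2, or 32.6 and 27.1 against 36.9 and 32.3 CPM per kilobase. The lower shYthdf2 library was just below the higher control. The log2 fold change of 0.21 (SE 0.12, 95% interval -0.063 to 0.49) did not pass (edgeR adjusted p = 0.37), nor did it under any of 13 other settings. It was 0.087 without shScramble replicate 2, 0.35 without shScramble replicate 1 and 0.11 without shYthdf2 replicate 1.

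Ythdc2, on chromosome 18, was the scarcest reader. It had 1290 and 955 reads in shScramble against 1113 and 1272 reads in shYthdf2, which is 4.95 and 4.19 against 4.50 and 4.91 CPM per kilobase. Both shYthdf2 libraries lay between the controls. Its log2 fold change was 0.042 (SE 0.14, 95% interval -0.27 to 0.35, edgeR adjusted p = 0.91), and it was below 0 without shScramble replicate 2 (-0.073) or without shYthdf2 replicate 2 (-0.023). The 2 YTHDC transcripts together stood at 34.4 ± 4.40 CPM per kilobase in shScramble and 39.3 ± 2.96 in shYthdf2 (SD, n = 2), a difference about as large as the spread. There were 6.57 and 6.47 Ythdc1 transcripts per length for each of Ythdc2 in shScramble, and 8.20 and 6.57 in shYthdf2. The size of these ratios depends on the length used for Ythdc1.

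Igf2bp1 was the most abundant reader. Its protein holds transcripts in stable particles and is typical of embryonic cells. It lies at chr11:95957163-96005944 on the minus strand. Igf2bp1 had 24249 and 20927 reads in shScramble and 24556 and 26849 reads in shYthdf2, or 80.3 and 79.2 against 85.7 and 89.5 CPM per kilobase. Replicates were close and the groups did not overlap, but the difference was small. The log2 fold change of 0.13 (SE 0.10, 95% interval -0.085 to 0.35) did not pass (edgeR adjusted p = 0.48), nor did it under any of 13 other settings.

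Igf2bp2, a relative that persists in adult tissues, lies at chr16:22059009-22163299 on the minus strand. Its reads were 4575 and 4743 in shScramble and 3492 and 4158 in shYthdf2, or 32.6 and 38.6 against 26.2 and 29.8 CPM per kilobase. Both shYthdf2 libraries were below both controls. This gave a log2 fold change of -0.35 (SE 0.12, 95% interval -0.62 to -0.072, edgeR adjusted p = 0.15). Without shYthdf2 replicate 2 it passed at -0.44 (edgeR adjusted p = 0.010), and without shScramble replicate 2 it was -0.22.

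Igf2bp3, known from fetal tissue and tumours, lies at chr6:49085218-49215469 on the minus strand. Its reads were 5146 and 5238 in shScramble and 3837 and 4731 in shYthdf2, or 22.6 and 26.3 against 17.8 and 20.9 CPM per kilobase. As with Igf2bp2, both shYthdf2 libraries were below both controls. Its log2 fold change was -0.34 (SE 0.12, 95% interval -0.62 to -0.062, edgeR adjusted p = 0.16), and without shYthdf2 replicate 2 it passed at -0.46 (edgeR adjusted p = 0.0056). It was -0.23 both without shScramble replicate 2 (edgeR adjusted p = 0.64) and without shYthdf2 replicate 1 (edgeR adjusted p = 0.37). The neighbouring Malsu1, which shares sequence with it, had 704 and 620 reads against 704 and 665 reads.

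Within the IGF2BP family, Igf2bp1 made up 57.1% ± 3.04 of the summed level per length in shScramble and 65.0% ± 1.60 in shYthdf2 (SD, n = 2). Igf2bp2 made up 25.4% ± 1.94 and 20.7% ± 0.74, and Igf2bp3 17.5% ± 1.11 and 14.3% ± 0.86 (SD, n = 2). The shares of each gene did not overlap between the groups. These shares are parts of the same sum, so they do not move independently of each other. In level, 51.8% of all genes tested also did not overlap between the groups. The ratio of Igf2bp2 to Igf2bp3 was nearly the same in all 4 libraries, at 1.44 and 1.47 in shScramble and 1.47 and 1.42 in shYthdf2. The size of these shares and ratios holds for merged exons and depends on the length used for Igf2bp3. Igf2bp1 to Igf2bp3 was 3.55 and 3.01 in shScramble and 4.82 and 4.28 in shYthdf2, without overlap. The sum of the 3 transcripts was 139.8 ± 6.12 CPM per kilobase in shScramble and 135 ± 7.48 in shYthdf2 (SD, n = 2), a difference smaller than the spread.

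Fmr1 encodes FMRP, a repressor of translation whose loss causes fragile X syndrome. It lies at chrX:68678536-68717963 on the plus strand. Its reads were 4862 and 4134 in shScramble and 3098 and 3853 in shYthdf2, or 26.2 and 25.5 against 17.6 and 20.9 CPM per kilobase. The controls were close to each other, and both shYthdf2 libraries were below them. On the log2 scale its fold change was -0.42 (SE 0.12, 95% interval -0.68 to -0.16), the lowest p of the readers after Ythdf2, and it did not pass (edgeR adjusted p = 0.076). This call lay near the threshold. It passed with DESeq2 (adjusted p = 0.019, where 9.77% of genes with an adjusted p passed), with no filter on low counts (edgeR adjusted p = 0.013) and without shYthdf2 replicate 2 (-0.55, edgeR adjusted p = 0.00076), and it was -0.31 without shYthdf2 replicate 1. Its relatives Fxr1 and Fxr2 had log2 fold changes of -0.12 and -0.24 (edgeR adjusted p = 0.56 and 0.21).

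**Figure D4:**
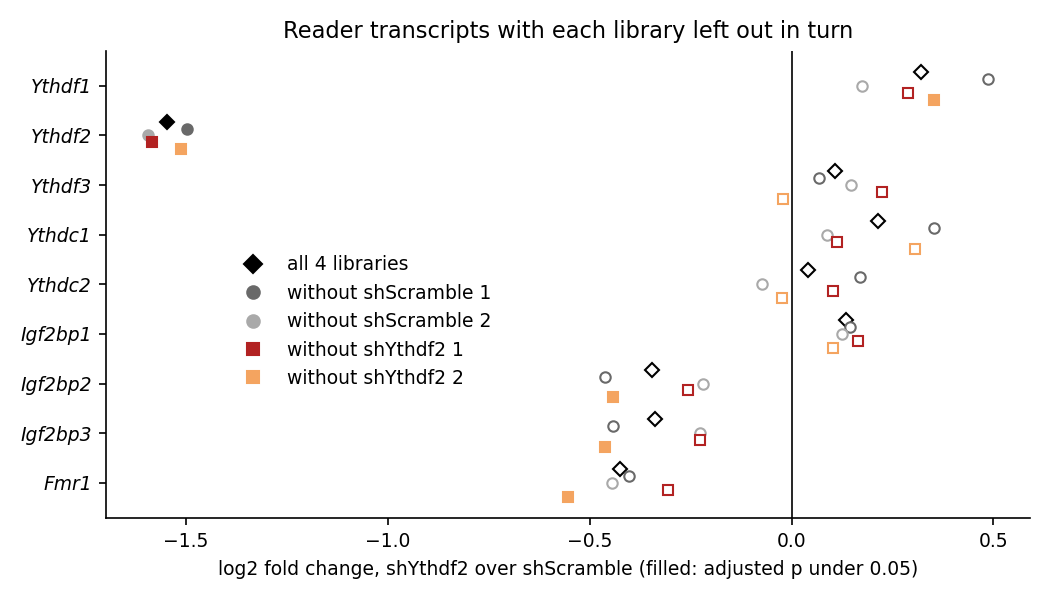
Log2 fold change of each reader transcript with all 4 libraries and with each library left out, in edgeR. Filled symbols have an adjusted p under 0.05. Ythdf2 is filled throughout, and Ythdf1, Igf2bp2, Igf2bp3 and Fmr1 are filled only without shYthdf2 replicate 2.

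All 9 transcripts together stood at 289.6 ± 5.52 CPM per kilobase in shScramble and 281 ± 7.98 in shYthdf2 (SD, n = 2). The difference was -2.92%, and the 2 groups overlapped, at 294 and 286 against 276 and 287 CPM per kilobase. Ythdf2 was 7.66% ± 0.20 of that pool in shScramble and 2.71% ± 0.17 in shYthdf2, whereas Igf2bp1 was 27.6% ± 0.26 and 31.2% ± 0.075 (SD, n = 2). Lower levels of other genes in the pool by themselves raise the share of Igf2bp1, whose own change did not pass (edgeR adjusted p = 0.48).

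A short match in the 3′ UTR was shared by the 3 IGF2BP transcripts and not found in the other 6 readers. The microRNAs of the let-7 family, which are scarce in ESCs because LIN28 blocks their maturation, share 1 seed in 8 mature forms listed by RefSeq (GRCm38.p6), shown here for let-7a with bases 2 to 8 in capitals.
mmu-let-7a-5p: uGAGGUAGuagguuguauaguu
The 8 bases CTACCTCA pair with this seed and end in an A. They were searched on the sense strand of the 3′ UTR of each gene's longest coding GENCODE transcript only. They occurred 3 times in Igf2bp1, 1 time in Igf2bp2 and 1 time in Igf2bp3, and 0 times in the other 6 readers, while 3.01% of 20952 genes had at least 1 match. The 5 matches are printed in windows of 30 bases with the matched bases in capitals, all from the minus strand. The windows of Igf2bp1 lie at chr11:95961770-95961799, chr11:95959349-95959378 and chr11:95958755-95958784, that of Igf2bp2 at chr16:22059465-22059494 and that of Igf2bp3 at chr6:49086779-49086808.
Igf2bp1 match 1: ctgtgcgaagtaaaCTACCTCAaggtgtga
Igf2bp1 match 2: agcagtgctattaaCTACCTCAgccccaga
Igf2bp1 match 3: tataaatggatgaaCTACCTCAgtcctcac
Igf2bp2 match: cacacaaataaaagCTACCTCAggtgtttt
Igf2bp3 match: gcatttttactcaaCTACCTCAggtattca
A match is a description of letters and not a measured site. The Igf2bp1 3′ UTR is also the longest of the 9 searched, with 6337 bases against 751 to 3059 in the others. Mature microRNAs were not measured in these libraries. Igf2bp1, with 3 matches, had a log2 fold change of 0.13, and Igf2bp2 and Igf2bp3, with 1 match each, had -0.35 and -0.34.

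GGACT, the core of the sequence in which m6A is most often found, was searched on the sense strand of each gene's longest coding transcript. This transcript fell furthest short of the merged exons for Ythdc1 (3269 against 4992 bases), Igf2bp3 (4345 against 6318) and Fmr1 (4409 against 5149). Other transcripts of a gene were not searched. Ythdf2 had 5 matches (1.21 per kilobase), Igf2bp1 10 (1.19 per kilobase) and Igf2bp2 5 (1.28 per kilobase), above the median of 1.01 per kilobase over 21877 genes. The other 6 readers had 1 to 3 matches and between 0.196 and 0.612 per kilobase. Of all genes, 87.6% had at least 1 match, and methylation itself was not measured in these libraries.

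Genes that act with the readers were taken from 9 lists written from general knowledge, which together held 53 different genes, all tested. Of these 0 rose and 1 fell, and their median log2 fold change was -0.054 against 0.0019 over all genes tested, of which 3.91% passed. Without adjustment, 1 was higher and 6 were lower at a p under 0.05, where 20.8% of all genes tested passed in either direction.

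Of 12 writers and cofactors tested, 0 passed in either direction with edgeR, also at an unadjusted p under 0.05, and their median log2 fold change was -0.094. Without shYthdf2 replicate 2, 1 of them passed, Rbm15, which recruits the complex to RNA (-0.43, edgeR adjusted p = 0.038). Mettl3, the catalytic subunit, stood at 45.3 and 37.9 CPM in shScramble and 46.6 and 42.6 CPM in shYthdf2 (log2 fold change 0.099, edgeR adjusted p = 0.73). The lowest p in each direction belonged to Cbll1, a ubiquitin ligase of the complex (-0.21, edgeR adjusted p = 0.32), and Rbm15b, which guides it to RNA (0.098, edgeR adjusted p = 0.70). The erasers Fto (0.13) and Alkbh5 (0.0077) had edgeR adjusted p-values of 0.55 and 0.98. Among 11 other proteins proposed to bind m6A, 0 passed. Prrc2a had the lowest p, with 998 and 999 CPM in shScramble and 745 and 833 CPM in shYthdf2 (log2 fold change -0.34, edgeR adjusted p = 0.10). It passed with DESeq2 (adjusted p = 0.028), with no filter on low counts (edgeR adjusted p = 0.031) and without shYthdf2 replicate 2 (-0.42, edgeR adjusted p = 0.0018). On the other side Eif3b, a subunit of initiation factor eIF3, had 0.14 (edgeR adjusted p = 0.50).

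Of the 5 genes through which YTHDF2 reaches the decay machinery, 0 passed. Cnot1, the scaffold of the CCR4-NOT deadenylase, had 1135 and 1109 CPM in shScramble and 765 and 955 CPM in shYthdf2. Both shYthdf2 libraries were lower than the controls and were far from each other. It missed the threshold (log2 fold change -0.38, edgeR adjusted p = 0.11) and passed without shYthdf2 replicate 2 (-0.55, edgeR adjusted p = 1.26e-05), with DESeq2 (adjusted p = 0.029) and with no filter on low counts (edgeR adjusted p = 0.0091). Pnrc2, which links decay to decapping, had 0.11 (edgeR adjusted p = 0.65).

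Among 4 partners of YTHDC1, 0 passed. Setdb1, the histone methyltransferase that silences retroviral elements, had 199 and 173 CPM in shScramble and 239 and 241 CPM in shYthdf2, without overlap (log2 fold change 0.37, edgeR adjusted p = 0.094). It passed with DESeq2 (adjusted p = 0.032), with no filter on low counts (edgeR adjusted p = 0.025), and without shYthdf2 replicate 1 or 2 (edgeR adjusted p = 0.037 and 0.025). Srsf10, a splicing factor, had -0.081 (edgeR adjusted p = 0.70).

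Meioc, which works with YTHDC2 to carry germ cells into meiosis, was the gene of the 53 that fell. It had 1020 and 1058 reads in shScramble against 398 and 434 reads in shYthdf2, or 28.3 and 33.6 against 11.6 and 12.1 CPM. Replicates were close and the groups far apart (log2 fold change -1.38, SE 0.16, edgeR adjusted p = 0.0046). Meioc passed under all 13 other settings. Ythdc2 itself did not pass, as given above. Of the other two genes of that list, Xrn1, an exonuclease, had -0.31 (edgeR adjusted p = 0.23) and passed without shYthdf2 replicate 2 (-0.51, edgeR adjusted p = 0.0062), and Rbm46, with 25 to 48 reads per library, had -0.59 (edgeR adjusted p = 0.50).

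Among 7 proteins that share particles with the IGF2BPs, 0 passed, and the lowest p in each direction belonged to Syncrip (-0.18, edgeR adjusted p = 0.35) and Elavl1 (0.085, edgeR adjusted p = 0.72), both RNA-binding proteins. Of 6 FMRP partners 0 passed. Apart from Fxr2, the values lay between -0.19 for Cyfip2, which ties FMRP to the cytoskeleton, and 0.042 for Nufip1.

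The last list held 6 transcripts that IGF2BPs bind or that belong to the let-7 axis, of which 0 passed. Lin28a, the block on let-7 maturation, came closest, with 236 and 191 CPM in shScramble and 155 and 150 CPM in shYthdf2. The groups did not overlap, and the log2 fold change was -0.49 (edgeR adjusted p = 0.056). This call was on the edge of the threshold. Lin28a passed with library totals and with halved counts (both edgeR adjusted p = 0.047). It passed with upper quartile scaling and with a mean of at least 1 CPM (both edgeR adjusted p = 0.049). With no filter on low counts (edgeR adjusted p = 0.0014) and with the replicate number as a block (edgeR adjusted p = 0.00014) it also passed. So it did with DESeq2 (adjusted p = 0.0056) and without 1 library in 3 of the 4 cases. It did not pass with RLE scaling or limma-voom. Myc had 52.3 and 25.5 CPM in shScramble and 52.9 and 41.1 CPM in shYthdf2. The controls were far apart. The log2 fold change was 0.27 (edgeR adjusted p = 0.62) with all libraries, and it passed without shScramble replicate 1 (0.89, edgeR adjusted p = 0.00070) and without shYthdf2 replicate 2 (0.44, edgeR adjusted p = 0.047).

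**Figure D5:**
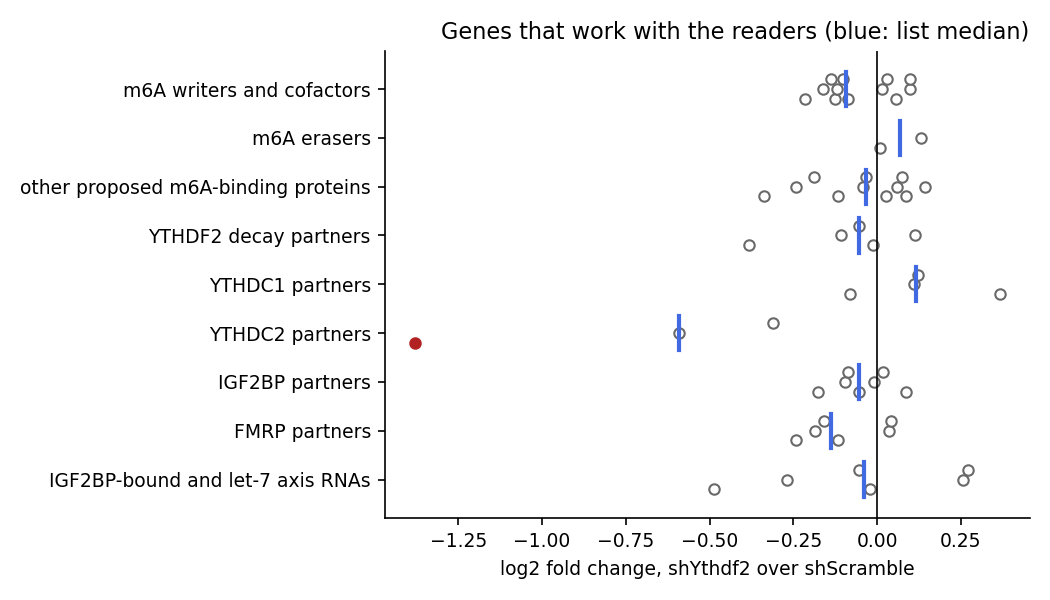
Log2 fold change in shYthdf2 over shScramble of the genes in the 9 lists, each point a gene and each blue line a list's median. The only filled red point, with an adjusted p under 0.05, is Meioc at -1.38.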

How the data were processed

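RNA-seq of 2 shScramble and 2 shYthdf2 libraries was analysed, grouped and numbered by their titles. The authors deposited raw read counts per gene, made per the file headers with featureCounts 2.0.3 over RefSeq exons of mm10, without a strand option and with each read of a pair counted singly (61.5% to 63.9% of counts from 1 to 20 were even). The submitters' processing notes also name fastp 0.19.4, HISAT2 2.2.1 and DESeq2 1.40.2. All 4 count columns were used.

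Groups were compared by the two-sided quasi-likelihood test of edgeR 4.0.16 (R 4.3.3) after TMM scaling, without covariates. The filter filterByExpr (minimum count 10 and total 15) left 18341 genes, over which p-values were adjusted by Benjamini-Hochberg. Its coefficient of biological variation was 15.8%. Replicates differed beyond counting noise. Scripts were tested on simulated data. Levels per length are TMM-scaled CPM divided by the deposited exon length in kilobases. Counting reads does not add molecules, so halved counts were tried, with other scalings, filters, DESeq2 1.42.0, limma-voom (limma 3.58.1), a replicate block and each library left out.

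The members and lists were chosen with earlier results of these data known. Named genes were all members, the 3 closest to Ythdf2 in pattern and, per list, the genes that passed or else the lowest p in each direction. Mettl3, the catalytic writer, was named beside this rule. So were Malsu1, Xrn1, Rbm15, Rbm46, Cyfip2, Fxr1, Tubb3 and marker genes that passed, after their values were seen. Sequences come from GENCODE M21 and RefSeq, and no protein sequence was used here. For Ythdc2 no sequence or position is given.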

Additional observations from a re-analysis of the deposited data

How the results depend on the processing

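Ythdf2 passed as lower under all 13 other settings, between -1.59 and -1.50. Of the fold changes of the 9 readers, 104 of 117 under these settings kept direction and call, 10 passed newly and 3 reversed. The reversed ones were Ythdf3 (-0.022 without shYthdf2 replicate 2, in a range of -0.022 to 0.22 with a library left out) and Ythdc2 (-0.073 without shScramble replicate 2 and -0.023 without shYthdf2 replicate 2, in a range of -0.073 to 0.17). The cause was not tested.

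The number of readers called lower, 1 with all libraries, was 2 with no filter on low counts and 2 with DESeq2. The number called higher was 0 in each of these. With a library left out, most readers were called without shYthdf2 replicate 2. Among the fits with a library left out, the share of all genes tested that passed was also highest there. The number of genes tested differed between settings. The share that passed was 3.91% in the main test, 6.34% with no filter on low counts and 9.77% with DESeq2. It was 3.63% with library totals, 3.32% with upper quartile scaling, 5.04% with a mean of at least 1 CPM and 4.83% with halved counts. Genes called over all tested, 718 in the main test, were 1938 with no filter, 1423 with DESeq2 and 834 to 2288 with a library left out. Of the listed partner genes, 1 in the main test, 2 passed with library totals, with upper quartile scaling, with a mean of at least 1 CPM and with halved counts, 5 with no filter, 5 with DESeq2 and 2 to 8 with a library left out.

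The log2 ratio of the summed YTHDF level, -0.030, was between -0.10 and 0.048 with a library left out, and reversed to 0.048 without shScramble replicate 1. The share of the Ythdf2 loss matched by the other two ranged from 56.8% to 121%.

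The groups share replicate numbers, and with 2 pairs the labels give no shared origin. Deviations of same-numbered libraries correlated at 0.225. With the replicate number as a block, 3525 genes passed (19.2%), 1 reader was higher (Ythdf1) and 4 were lower (Ythdf2, Igf2bp2, Igf2bp3 and Fmr1), and 7 listed partner genes passed.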
